A study of Mus musculus with 48 samples.

Results

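The subject here is the inner part of the D array in the mouse antibody heavy chain locus, Igh, between Ighd4-1, the D segment next to the JH segments, and Ighd1-1, the D segment at its far side. Its members are defined by position: junctions on chromosome 12, strand 1, in the 51591 bp from just past Ighd4-1 to just short of Ighd1-1. These junctions come from the full junction lists of 25 libraries whose bait lay in JH1 to JH4. They numbered 1942670 of the 8022540 junctions in the whole D region, from Ighd4-1 to the last annotated D segment, which is 24.2% over all libraries together. The site of Ighd4-1 held 1257235 junctions, of which 1506 reached past the border and count as internal, and Ighd1-1 held 4783226, outside the interval. The annotation places 16 D segments in the interval. The RefSeq table lists 7 of them as D segments (Ighd3-2 and Ighd2-3 to Ighd2-8) and 9 as D segment pseudogenes (Ighd5-2 to Ighd5-8, Ighd6-1 and Ighd6-2). All 16 had a site of their own, and these sites held 98.7% of the internal junctions. A further 1.23% lay in 181 sites with no annotated segment, and 0.0775% lay in the edge of the site of Ighd4-1. The interval begins 21 bp past the end of Ighd4-1, and within 10 bp of that border 3664 strand-1 junctions lay outside and 823 inside. At the border with Ighd1-1 the same counts were 263 outside and 9 inside.

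The libraries were made by LAM-HTGTS, in which a primer at the bait is extended by linear amplification and each read crosses a joint into its other partner, the prey. Of the 48 samples in the series, 25 carried a full JH-bait list used here. Primary bone marrow (BM) pro-B cells of C57BL/6 background, purified with B220 beads and cultured with IL-7 and SCF, gave 3 wild-type libraries (WT BM) and 4 with an Igh inversion (INV BM). A further sample labelled WT BM replicate 4 carried an off-target list and was not analysed here. The labels call both RAG1 deficient without naming a step that restores RAG. The other 18 libraries came from v-Abl transformed pro-B cell lines, which are RAG1 deficient, carry an Emu-Bcl2 transgene, were infected with RAG1/2 retrovirus and were arrested with 3 uM of the Abl kinase inhibitor STI-571 over 4 days. An untreated line with OsTIR1 and no degron, called parental here and named Primary in its titles, an untreated Wapl-degron line with OsTIR1, and the same line given IAA and Dox had 3 libraries each. A Wapl-degron line with OsTIR1 and a single Igh allele (single-Igh) had 3 untreated libraries, 3 given IAA and Dox, and 3 labelled as inverted in their titles and given IAA and Dox. IAA, the auxin that lets OsTIR1 mark a degron-tagged protein for destruction, was used at 150 uM for 3 days. Where the inversion ends is not in the labels, nor whether replicates were separate cultures or animals, so p-values measure the spread between these libraries, which may be technical. Each line may be a single clone, and marker genes of the cells cannot be checked in junction lists.

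RAG cuts DNA at recombination signal sequences, each made of a heptamer next to the coding segment, a spacer and a nonamer. A D segment has such a signal on both sides, and the one facing JH is used when D joins JH with loss of the DNA between them. In such a joint the ends are trimmed, and the polymerase TdT can insert bases that are in neither segment. Cohesin extrudes chromatin loops past the recombination centre that RAG forms over the JH segments and Ighd4-1, and Wapl releases cohesin from chromatin.

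Below are members with their JH-facing signals, shown because their use differed most or because their signal sets them apart, followed by their neighbours. Each line runs 5′ to 3′ on the coding (minus) strand of the mm9 genome (NCBIM37) and gives the D segment in lower case, then the heptamer in capitals, the spacer of 12 bases and the nonamer in capitals. The 6 Ighd2 members carry 1 and the same signal of 28 bases, and Ighd2-5 and Ighd2-6 are also identical as segments.

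Ighd2-3: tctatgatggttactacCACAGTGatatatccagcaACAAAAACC

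Ighd2-4: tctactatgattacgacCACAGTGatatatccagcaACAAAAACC

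Ighd2-6: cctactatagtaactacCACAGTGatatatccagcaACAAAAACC

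Ighd2-7: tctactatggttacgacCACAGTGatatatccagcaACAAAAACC

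Ighd2-8: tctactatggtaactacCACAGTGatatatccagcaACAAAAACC

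Ighd3-2: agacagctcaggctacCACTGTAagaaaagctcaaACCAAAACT

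Ighd6-1: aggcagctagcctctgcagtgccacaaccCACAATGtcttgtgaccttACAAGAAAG

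Ighd5-6: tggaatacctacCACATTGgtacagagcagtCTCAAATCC

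Ighd4-1: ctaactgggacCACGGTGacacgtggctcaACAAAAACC

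Ighd1-1: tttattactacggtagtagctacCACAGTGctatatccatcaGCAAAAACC

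These sequences lie at chr12:114713583-114713627 (Ighd2-3), chr12:114708877-114708921 (Ighd2-4), chr12:114699552-114699596 (Ighd2-6), chr12:114694903-114694947 (Ighd2-7), chr12:114689034-114689078 (Ighd2-8), chr12:114686397-114686440 (Ighd3-2), chr12:114718326-114718382 (Ighd6-1), chr12:114687771-114687810 (Ighd5-6), chr12:114668711-114668749 (Ighd4-1) and chr12:114720353-114720403 (Ighd1-1). The heptamer of the Ighd2 members, CACAGTG, is also that of Ighd1-1. It occurs on the coding strand in 23 of the 51585 windows of 7 bases in the interval (0.0446%), and on the other strand in 11 (0.0213%). Ighd3-2 has CACTGTA, Ighd5-2 to Ighd5-6 have CACATTG, and Ighd5-7, Ighd5-8, Ighd6-1 and Ighd6-2 have CACAATG. Pairs of Ighd2 members share 89% to 100% of the 100 bases on the side away from JH, which is the side a prey read covers, and the median prey alignment of a library was 123 to 191 bases. Junctions of Ighd2 members, above all those of Ighd2-5 and Ighd2-6, could therefore be split among them by the alignment, and their separate values are uncertain to that degree. The low mapping quality mark was on 0 of the 1942670 internal junctions.

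Libraries held 61194 to 1016401 junctions, of which 58419 to 841534 lay in the D region and 14011 to 282523 were internal. The 95% Wilson interval of the internal share reached at most 0.402 points to either side, which covers counting error only. Junctions repeated: with the same position, strand, bait end and insertion length taken as 1 distinct junction, a library had 9.35 to 57.9 lines per distinct D junction and 705 to 22542 distinct internal junctions. Separate joints alike in all of these also count as 1, so this count cannot tell them from repeated reads of 1 joint. Wapl-degron IAA/Dox replicate 2 stood apart in that 226216 lines carried 161891 read names, a surplus of 28.4%, against at most 0.192% in any other library. In 7 libraries at least 1 of the 4 JH segments took under 5% of the internal junctions, in place of the spread over all 4 in the other 18. Of all D junctions, 4 more libraries had under 5% at JH4, namely Wapl-degron IAA/Dox replicates 1 to 3 (2.47%, 3.79% and 4.82%) and single-Igh IAA/Dox replicate 2 (3.42%). Parental replicate 1 had 94.9% of its internal junctions at JH4 and single-Igh untreated replicate 1 had 100% at JH2. The inverted single-Igh replicate 1 had 100% at JH1, and single-Igh IAA/Dox replicates 1 and 3 had 72.6% there. Wapl-degron untreated replicate 1 had none at JH2 and the inverted replicate 3 had 0.362% at JH3. Because internal use differed by JH, values within JH1 and within JH2 are given beside the main results that rest on these libraries. Parental replicates 2 and 3 were alike over D segments (chi-square p 0.446) but differed over 204 junction positions (chi-square p 5.24e-18), so they were kept as separate samples. No BM library shared a sequencing run, as read from the read names, with a line library. Differences between BM and the lines therefore cannot be told apart from the run.

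Over all JH segments together, the internal share of D junctions was higher in each BM library than in any line library. It was 44.8%, 47.0% and 44.2% in the WT BM libraries and 46.2%, 47.3%, 47.5% and 46.7% in the INV BM libraries. Parental libraries had 11.9%, 11.01% and 10.99%, and untreated Wapl-degron libraries had 11.4%, 10.6% and 10.3%, so these groups overlap. With IAA/Dox the Wapl-degron libraries had 14.2%, 15.3% and 15.7%, all above the untreated ones. Untreated single-Igh libraries had 21.3%, 21.1% and 20.2%. With IAA/Dox they had 28.2%, 20.6% and 27.3%, and the middle value lay inside the untreated range. Inverted single-Igh libraries with IAA/Dox had 35.5%, 42.2% and 41.6%, above all other line libraries. Within a single JH these did not all stay below BM: they had 35.5%, 39.9% and 39.6% at JH1, where BM had 30.1% to 36.8%, and 58.6% and 58.3% at JH4, where BM had 55.95% to 58.3%. At JH2 they had 39.9% in both libraries measured, against 43.8% to 47.4% in BM. With each distinct junction counted once the levels were higher and closer together, at 61.7% ± 3.1 in WT BM, 38.4% ± 1.5 in the parental line, 39.2% ± 0.22 in untreated Wapl-degron cells and 56.7% ± 3.1 in the inverted single-Igh line (SD, n = 3 each). The remaining D junctions were shared out differently: Ighd1-1 took 45.5% ± 1.1 (SD, n = 3) in WT BM and 78.0% ± 5.8 (SD, n = 3) in the parental line. Ighd4-1 took 11.7% ± 2.0 (SD, n = 3) of D junctions in untreated Wapl-degron cells and 60.7% ± 1.7 (SD, n = 3) with IAA/Dox.

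**Figure D1:**
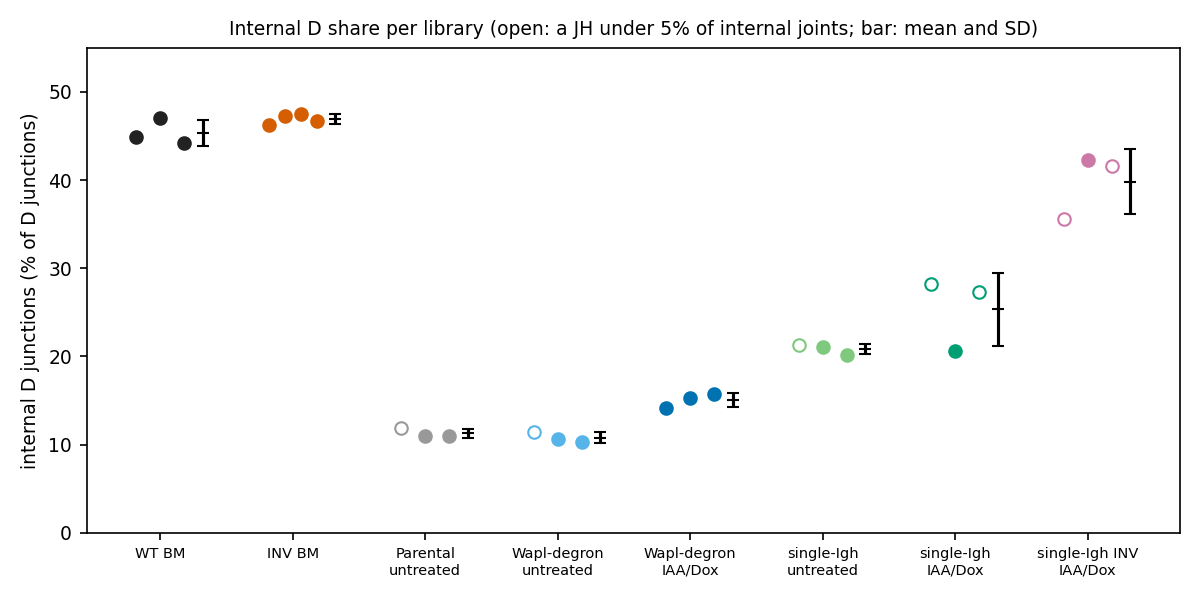
Internal D junctions as percent of all D junctions (y axis) in each of the 25 libraries, by group (x axis), with the group mean and SD beside the points. Open points are the 7 libraries in which at least 1 JH segment had under 5% of the internal junctions. BM libraries lie between 44.2% and 47.5%, and untreated Wapl-degron and parental libraries between 10.3% and 11.9%.

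Which members made up the internal junctions differed between BM and the lines. Over all libraries Ighd2-3 held 707437 junctions (36.4% of the internal ones), Ighd2-4 held 425683 (21.9%) and Ighd2-8 held 369665 (19.0%). All 3 are members of the Ighd2 family (formerly DSP2), whose 6 segments together made up 85.1% ± 0.72 (SD, n = 3) of internal junctions in WT BM and 93.4% or more on average in each line group. In BM the most used member was Ighd2-4. It took 12.1%, 12.9% and 11.9% of D junctions in WT BM and 15.2%, 14.5%, 14.3% and 14.1% in INV BM, and the groups do not overlap. Ighd2-8, the Ighd2 member closest to JH, 20.3 kb from Ighd4-1, took 8.70%, 8.46% and 8.27% in WT BM. Ighd2-3, the Ighd2 member farthest from JH at 44.9 kb, took 8.17%, 7.67% and 7.68% there. The WT BM ranges of Ighd2-8 and Ighd2-3 do not overlap, but their means differ by less than 1 percentage point.

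In each group of line libraries the order over all JH segments together was Ighd2-3, then Ighd2-8, then Ighd2-4. The order of Ighd2-8 and Ighd2-4 depended on the JH segment. At JH3 Ighd2-4 took 2.07% to 2.30% and Ighd2-8 2.01% to 2.19% in untreated Wapl-degron libraries, with Ighd2-4 higher in each. The untreated single-Igh libraries had 3.09% and 2.77% against 2.91% and 2.57% there. At JH3 Ighd2-4 was also higher in parental replicate 3 but not 2, and in no treated library. Ighd2-3 took 6.37%, 5.50% and 5.45% of D junctions in the parental line, against 1.97%, 2.15% and 2.14% for Ighd2-8 and 1.83%, 1.64% and 1.64% for Ighd2-4. In the untreated single-Igh line Ighd2-3 took 12.4%, 12.9% and 12.4%, and Ighd2-8 took 3.21%, 3.33% and 3.17%. The separation is wide for Ighd2-3, whereas the single libraries of Ighd2-8 and Ighd2-4 lie close together in the parental line. As a share of internal junctions Ighd2-3 made up 17.3% ± 0.96 (SD, n = 3) in WT BM and 51.1% ± 2.3 (SD, n = 3) in the parental line.

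Between Ighd2-8 and Ighd2-4 lie Ighd2-7, Ighd2-6 and Ighd2-5, which have the same JH-facing signal as the 3 leading members. In WT BM they took 3.32% ± 0.18, 3.46% ± 0.56 and 3.18% ± 0.29 of D junctions (SD, n = 3 each). In the parental line they took 0.202% ± 0.0024, 0.320% ± 0.012 and 0.477% ± 0.11 (SD, n = 3 each). Together the 3 middle members were 21.9% ± 1.5 (SD, n = 3) of the internal junctions in WT BM and between 6.02% and 10.6% on average in the line groups. The ratio of Ighd2-3 to Ighd2-7, segments with 1 and the same signal, was 2.18 to 2.51 in WT BM libraries, 27.2 to 31.1 in parental libraries and 31.8 to 37.7 in untreated single-Igh libraries. The WT BM range does not touch the others. With each distinct junction counted once the ratio was 1.77 to 1.96, 6.22 to 9.16 and 5.62 to 6.74, so its size depends on how repeated junctions are counted. Within JH1 the ratio was 3.24 to 4.55 in WT BM and 24.95 and 28.4 in the 2 parental libraries measured there, and within JH2 it was 2.04 to 2.38 and 24.2 to 46.3, the last from 15 junctions of Ighd2-7 in parental replicate 1.

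Ighd3-2, the internal member nearest to JH, 17.7 kb from Ighd4-1, took 4.13%, 3.19% and 3.66% of D junctions in WT BM and 3.18% to 3.29% in INV BM. In line libraries it took 0.276% to 1.29%. The 9 pseudogenes together took 1.73% ± 0.46 (SD, n = 3) in WT BM and 0.801% ± 0.065 (SD, n = 4) in INV BM. Of these, Ighd6-1 held 26875 junctions over all libraries, Ighd6-2 4067, Ighd5-6 2410, Ighd5-7 1233, Ighd5-5 668, Ighd5-8 660, Ighd5-4 610, Ighd5-2 312 and Ighd5-3 99. Ighd6-1, next to Ighd1-1 at 49.6 kb, held more junctions than the other 8 pseudogenes together.

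**Figure D2:**
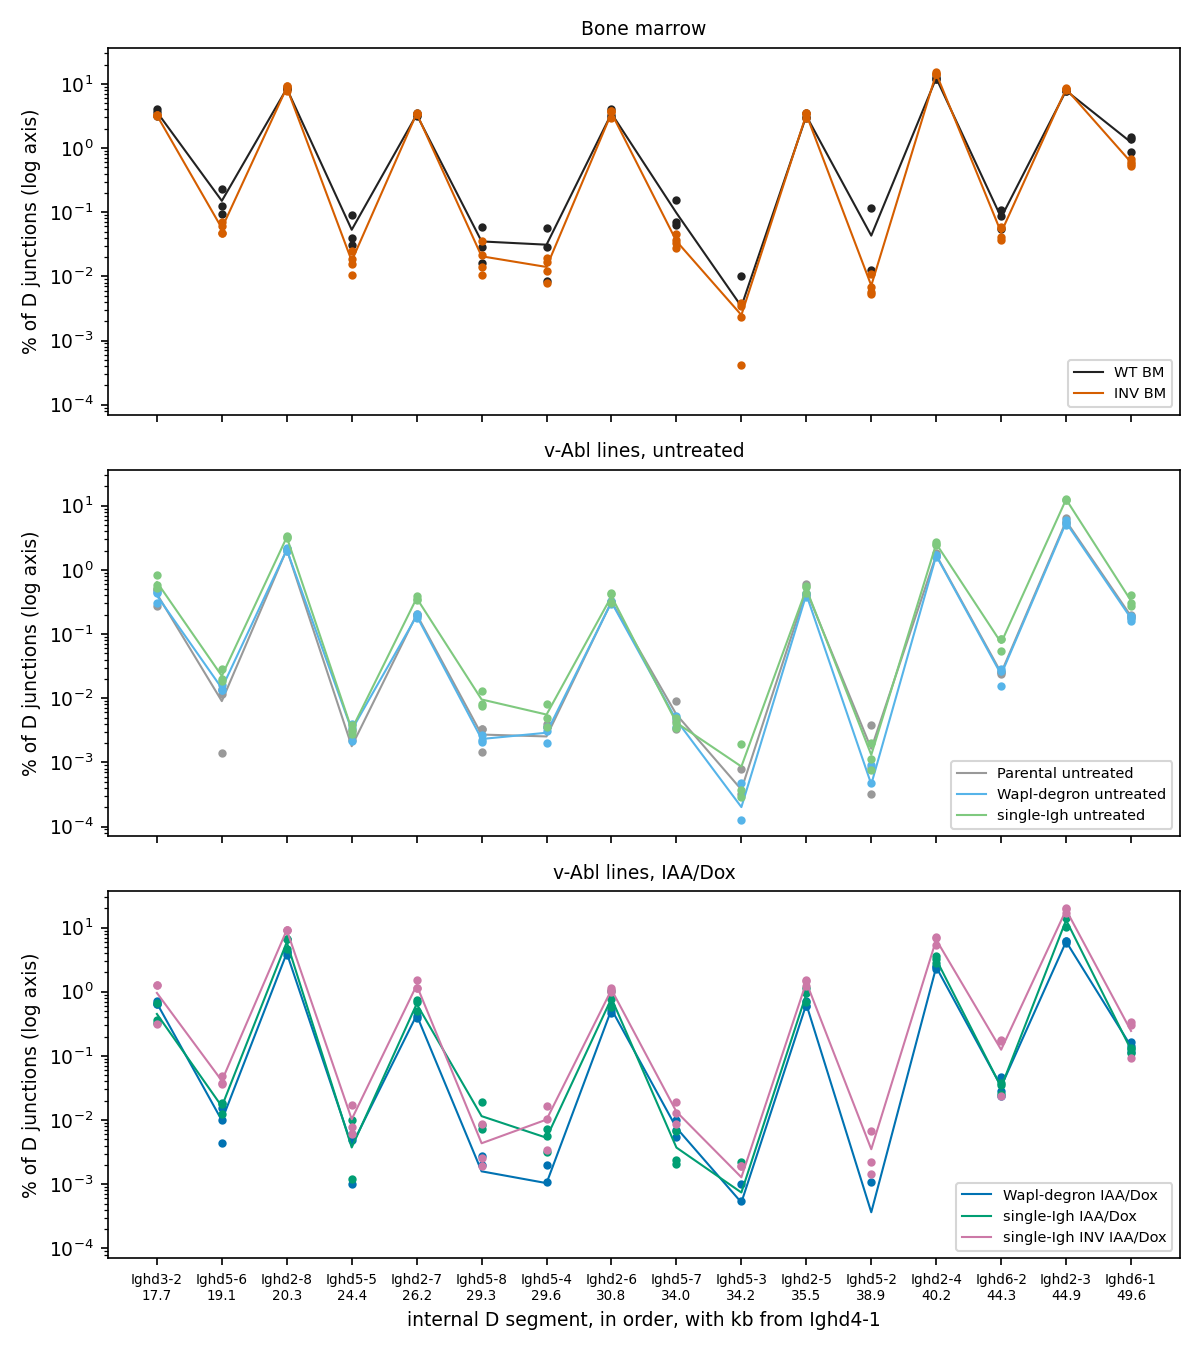
Percent of D junctions (y axis, log scale) at each of the 16 internal segments in their order from JH, with the distance in kb from Ighd4-1 (x axis), for BM, untreated lines and lines given IAA/Dox. Points are libraries and lines join group means; libraries or means at 0 are not drawn. Ighd2-4 is the highest point in BM and Ighd2-3 in each line group.

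The wild-type and inverted BM libraries were compared first, which asks how D use differs in cells with an Igh inversion. VH-region junctions numbered 182742, 83648 and 61394 in WT BM, beside 196098, 82234 and 58673 in the D region. In INV BM they were 8.40% to 11.7% of all junctions and D junctions 77.8% to 87.4%. The shares of D junctions are thus taken over unlike pools. Ighd2-4 rose, by 0.27 ± 0.07 (log2 fold change ± SE, limma voom on D sites, adjusted p 0.0240, higher in 4 of 4 INV BM libraries). The pseudogene Ighd6-1 fell by 0.85 ± 0.23 on the log2 scale (adjusted p 0.0240), from 0.865%, 1.46% and 1.36% in WT BM to 0.677%, 0.615%, 0.534% and 0.573%. These were 2 of 16 members tested, 1 in each direction, where 8.53% of the 129 D sites tested passed, 1.55% upward and 6.98% downward. The median change of the 16 members was -0.41 and that of all D sites was -0.44. Of the other members, Ighd2-3 (0.09 ± 0.08, adjusted p 0.674), Ighd2-8 (-0.04 ± 0.10, adjusted p 0.889) and Ighd3-2 (-0.23 ± 0.12, adjusted p 0.272) did not pass. The internal share as a whole was 46.9% ± 0.57 (SD, n = 4) against 45.4% ± 1.5 (SD, n = 3), with overlapping libraries and an exact permutation p of 0.143 (two-sided, adjusted p 0.330 over 30 tests). Of 17 alternatives, Ighd2-4 kept its call in 11 and Ighd6-1 in 8. JH1 had 11.2% to 15.8% of internal junctions in INV BM and 16.6% to 20.4% in WT BM. At JH1 Ighd2-4 took 9.40% to 10.8% of D junctions in INV BM and 8.17% to 10.1% in WT BM, which overlap. At JH2 it took 13.4% to 14.1% and 11.3% to 12.3%. The groups were also apart at JH3 and overlapped at JH4. With JH1 baits alone limma called neither member, and with JH2 baits alone it called Ighd2-4 only. Scaled by the median ratio of sites, Ighd6-1 was at -0.32 (adjusted p 0.513) and Ighd2-4 at 0.85 (adjusted p 2.80e-07). All junctions as library size also count JH-region ones, which were 20286 of 401241, 330231 of 509261 and 888646 of 1016401 in WT BM. In INV BM the JH-region junctions numbered 7998 to 75003 a library. With that library size in place of D junctions, Ighd6-1 was above 0, at 1.34 (adjusted p 0.154), and Ighd2-4 was at 2.58 (adjusted p 0.0114), so the direction of Ighd6-1 rests on the scaling. Both lost their call in limma without WT BM replicate 2 or INV BM replicate 3 (adjusted p 0.0832 and 0.0991), Ighd2-4 also without WT BM replicate 1 or 3 (0.332 and 0.0659) and Ighd6-1 without INV BM replicate 4 (0.0913). With distinct junctions counted once the adjusted p was 0.553 for Ighd2-4 and 0.192 for Ighd6-1.

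The Wapl-degron line was compared with and without IAA/Dox next, which asks how D use shifts when Wapl is marked for loss. The members that rose were Ighd3-2 and the Ighd2 members other than Ighd2-3. Ighd2-7 rose by 1.14 ± 0.11 (log2 fold change ± SE, limma, adjusted p 1.91e-04), from 0.176%, 0.206% and 0.194% of D junctions to 0.393%, 0.422% and 0.481%. Ighd2-8 rose by 0.98 ± 0.07 (adjusted p 3.80e-05), from 2.18%, 2.02% and 1.98% to 3.76%, 4.14% and 4.11%. Ighd2-6 (0.77 ± 0.11, adjusted p 0.00127), Ighd3-2 (0.70 ± 0.16, adjusted p 0.0120), Ighd2-5 (0.62 ± 0.10, adjusted p 0.00272) and Ighd2-4 (0.54 ± 0.07, adjusted p 7.37e-04) rose too, each higher in 3 of 3 libraries. Ighd2-3, the most used and most distant Ighd2 member, changed by 0.18 ± 0.09 over all JH segments together and did not pass (adjusted p 0.128). At JH1 it took 4.21% to 4.85% of D junctions untreated and 6.92% to 7.44% treated, and at JH4 7.29% to 8.54% and 17.2% to 18.4%. At JH2 it took 4.76% and 5.21% untreated and 4.49% to 4.55% treated, and at JH3 6.21% to 7.46% and 7.38% to 7.61%. Its value over all JH segments thus sums unlike changes. In all, 6 of the 15 members tested rose and 0 fell, where 43.5% of the 62 D sites tested passed, 24.2% upward and 19.4% downward. The 9 others, all pseudogenes except Ighd2-3, did not pass, and Ighd5-3 had too few junctions to be tested. The median change was 0.38 for the members and 0.13 for all D sites.

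These calls were made on shares, in which Ighd4-1 rose by 2.33 ± 0.10 and Ighd1-1 fell by 1.68 ± 0.04 on the log2 scale. Scaled by the median ratio of sites, the fitted changes of the called sites moved by -0.52 (median), and Ighd2-4 was then at 0.01 (adjusted p 0.900), Ighd2-5 at 0.10 (0.481), Ighd2-6 at 0.24 (0.110) and Ighd3-2 at 0.21 (0.267), so that 4 of the 6 lost their call. With each distinct junction counted once, Ighd2-8 kept its call (0.31, adjusted p 6.63e-05) and the other 5 members lost theirs. Of these, 3 were above 0 and 2 below, Ighd2-6 at -0.0437 and Ighd2-5 at -0.14. With JH2 baits alone, Ighd2-4, Ighd2-5 and Ighd2-6 missed the threshold (adjusted p 0.0909, 0.174 and 0.133), and Ighd3-2 did so without treated replicate 2 (0.0567). With the sequencing run as a block Ighd2-5 and Ighd3-2 missed it as well (0.0902 and 0.144). With each read name counted once, the difference in the overall internal share was 3.85 points. Ighd2-8 kept its direction and its call in all 16 alternatives run for it, with adjusted p-values of 3.26e-11 to 0.00669.

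The same treatment was compared in the single-Igh line. Ighd2-6 rose by 0.99 ± 0.25 (limma, adjusted p 0.0105), Ighd2-8 by 0.84 ± 0.18 (adjusted p 0.00340), Ighd2-5 by 0.82 ± 0.23 (adjusted p 0.0175) and Ighd2-7 by 0.79 ± 0.21 (adjusted p 0.0157). For Ighd2-8 the untreated libraries had 3.21%, 3.33% and 3.17% of D junctions and the treated ones 6.53%, 4.68% and 6.61%. The pseudogenes Ighd6-1 and Ighd6-2 fell by 1.36 ± 0.25 (adjusted p 0.00184) and by 1.08 ± 0.34 (adjusted p 0.0317). Ighd6-1 had 0.413%, 0.302% and 0.275% untreated and 0.129%, 0.133% and 0.112% treated. Ighd2-3 changed by 0.02 ± 0.16 (adjusted p 0.9504), and Ighd2-4 by 0.31 ± 0.17 (adjusted p 0.164), and neither passed. Thus 4 of 16 members rose and 2 fell, where 30.3% of the 66 D sites tested passed, 12.1% upward and 18.2% downward. The median change of the members was 0.00 and that of all D sites was -0.32.

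In this line the JH make-up of the libraries moved with the treatment, since treated replicates 1 and 3 had most of their internal junctions at JH1. At JH2 alone, Ighd2-8 was at 0.08 (adjusted p 0.870), Ighd2-7 at 0.16 (adjusted p 0.759) and Ighd2-6 at 0.03 (adjusted p 0.922), so these calls were lost, as was that of Ighd6-1 at JH1 alone and at JH2 alone (adjusted p 0.215 and 0.208). The JH2 lists of treated replicates 1 and 3 were small, with 2810 and 4181 D junctions against 106186 in replicate 2, and in replicate 3 Ighd1-1 took 56.7% of them against 24.3% and 17.7%. Ighd2-8 took 4.06%, 3.69% and 2.34% there in treated replicates 1 to 3 and 3.07% to 3.28% untreated. Without treated replicate 3 at JH2, Ighd2-8 was at 0.22 (adjusted p 0.366) and Ighd6-1 at -0.97 (adjusted p 0.0304). The call of Ighd2-7 was also lost without untreated replicate 2 (0.0576) or treated replicate 1 or 3 (0.0557 and 0.0731), and that of Ighd2-5 without untreated replicate 3 (0.0629) or treated replicate 1 or 3 (0.0557 and 0.0678), all adjusted p from limma. With the sequencing run as a block no member passed in this line, Ighd2-8 being at 0.74 (adjusted p 0.482) and Ighd6-1 at -1.29 (adjusted p 0.189). With distinct junctions counted once Ighd2-5, Ighd2-6 and Ighd2-7 lost their calls, Ighd2-6 being below 0 at -0.0154. Ighd6-2 missed the threshold without untreated replicate 1 or 3 or treated replicate 3 (0.0675, 0.0796 and 0.123). At JH1 alone, Ighd2-8 was at 0.75 (adjusted p 2.67e-15) and Ighd2-7 at 0.91 (adjusted p 2.76e-05).

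**Figure D3:**
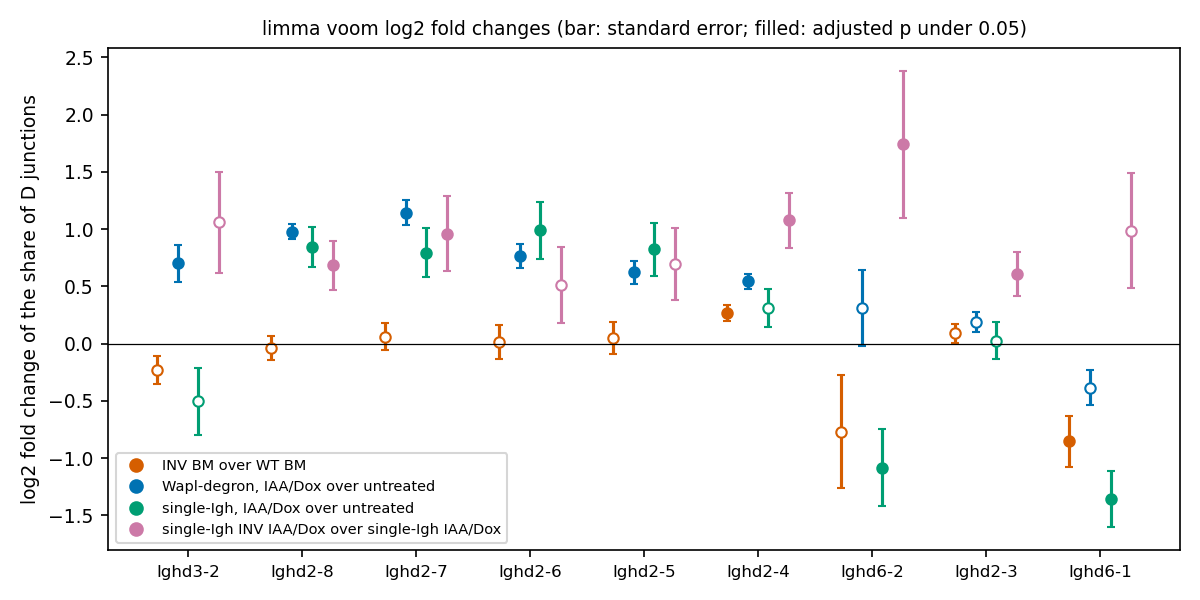
Log2 fold changes of the share of D junctions (y axis) from limma voom for 9 internal segments in their order from JH (x axis), in 4 comparisons told apart by colour. Bars are standard errors and filled points have an adjusted p under 0.05. In both IAA/Dox comparisons Ighd2-8, Ighd2-7, Ighd2-6 and Ighd2-5 are filled above 0 and Ighd2-3 is open near 0.

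In both lines fewer of the internal junctions lay in the far part of the interval with IAA/Dox. The share of internal junctions beyond the midpoint of the interval (114694565), which holds Ighd2-7 to Ighd6-1, was 78.0%, 76.3% and 76.2% in untreated Wapl-degron libraries and 68.4%, 68.2% and 68.6% with IAA/Dox. In the single-Igh line it was 80.7%, 81.3% and 81.5% untreated and 75.5%, 73.7% and 74.3% with IAA/Dox. Neither pair of groups overlaps, and the exact permutation p of each was 0.100, the smallest that 3 libraries against 3 can give (adjusted p 0.250 over 30 tests). Since the smallest possible p cannot pass the threshold, no test of this kind can call a difference here. The untreated and treated libraries were also apart with JH1 baits alone (76.1% against 67.9% and 79.5% against 74.2%, group means), with JH2 baits alone (75.3% against 67.6% and 80.7% against 73.4%), and with distinct junctions counted once (73.8% against 68.3% and 76.5% against 73.8%).

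How the internal share responded depended on the JH segment. In untreated Wapl-degron libraries it was 8.80% ± 0.43 (SD, n = 3) at JH1 and 14.3% ± 1.1 (SD, n = 3) at JH4. With IAA/Dox it was 17.6% ± 0.77 (SD, n = 3) at JH1, 11.7% ± 0.40 (SD, n = 3) at JH2, 17.4% to 19.0% at JH3 and 40.5% ± 1.1 (SD, n = 3) at JH4. At JH2 the untreated libraries had 10.4% and 10.8%, close below the treated range of 11.5% to 12.2%. In the single-Igh line JH4 gave 26.1% ± 1.5 (SD, n = 2) untreated and 51.3% to 52.3% with IAA/Dox, whereas JH2 gave 19.9% to 21.3% untreated and 12.2% to 19.0% with IAA/Dox. At JH2 the treated single-Igh libraries were thus all lower, and at JH1 and JH4 all higher. The difference in the overall internal share was 4.27 points in the first line (exact permutation p 0.100, adjusted p 0.250) and 4.51 points in the second (exact permutation p 0.300, adjusted p 0.524), where leaving out 1 library gave 3.08 to 6.89 points, the last without treated replicate 2. It was -0.134 and -2.79 points with distinct junctions counted once, so the sign of the overall difference depends on how repeated junctions are counted. The log2 ratio of treated to untreated was 0.48 in the first line and 0.28 in the second, and the difference between the lines had a permutation p of 0.730 (exact, 400 arrangements). With Ighd4-1 left out of the denominator, the internal share was 12.2% untreated and 38.3% with IAA/Dox for Wapl-degron cells, and 23.7% and 46.9% in the single-Igh line, with no overlap in either.

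The inverted single-Igh line was compared with the non-inverted one, both with IAA/Dox. Internal segments took 39.8% ± 3.7 (SD, n = 3) of D junctions against 25.3% ± 4.2 (SD, n = 3), with no overlap (exact permutation p 0.100 and adjusted p 0.250, the floor of this design). At JH1 the shares were 38.4% and 24.0% (n = 3 each), and at JH2 39.9% (n = 2) and 16.01% (n = 3), with no overlap at either. Within the sequencing run that held libraries of both groups the means were 38.9% (n = 2) and 28.2% (n = 1). Ighd4-1 took 22.4% ± 0.74 and 45.8% ± 10 (SD, n = 3 each), and without Ighd4-1 in the denominator the internal shares were 51.3% and 46.9%, and the groups overlap. Ighd2-4 rose by 1.08 ± 0.24 (limma, adjusted p 0.00190), from 3.55%, 2.78% and 3.25% to 5.37%, 7.11% and 6.92%. Ighd2-7 (0.96 ± 0.33, adjusted p 0.0339), Ighd2-8 (0.68 ± 0.22, adjusted p 0.0222) and Ighd2-3 (0.61 ± 0.19, adjusted p 0.0207) rose too. The pseudogene Ighd6-2 (1.74 ± 0.64, adjusted p 0.0426) passed as well. Ighd5-2 also passed the fit (adjusted p 0.0339), but it reached the 10 junctions needed only through the inverted libraries, so a rise is not shown. Its mean there, 0.00351% of D junctions, was 1.25 times the 0.00280% that no junction allows on average in the non-inverted ones. Ighd5-2 had no junction in the 3 non-inverted libraries, which allows up to 0.00167% to 0.00359% of D junctions there, and it had 4, 3 and 7 junctions in the inverted ones. Of 16 members tested 6 passed upward, with Ighd5-2 counted among them, and 0 downward, where 28.3% of the 53 D sites tested passed, 24.5% upward and 3.77% downward. The median change was 1.00 for the members and 1.06 for all D sites. Scaled by the median ratio of sites, none of the 4 Ighd2 members passed, and Ighd2-3 and Ighd2-8 were at -0.16 and -0.08. At JH1 alone Ighd2-4 was at 0.97 (adjusted p 4.06e-06) and Ighd2-3 at 0.58 (adjusted p 2.69e-05), and at JH2 alone they were at 1.74 (adjusted p 0.0120) and 1.29 (adjusted p 0.0148). With the sequencing run as a block 0 D sites passed in limma. Without inverted replicate 2 or 3, Ighd2-3, Ighd2-7 and Ighd2-8 missed the threshold (adjusted p 0.150 and 0.181 for each), while Ighd2-4 kept its call without any 1 library. Ighd2-7 also missed it without non-inverted replicate 1, 2 or 3 (0.0503, 0.0633 and 0.0966). Ighd5-2 did so without any 1 non-inverted library or inverted replicate 2, and Ighd6-2 without any 1 library except inverted replicate 1. Without inverted replicate 3, Ighd5-2 had too few junctions to be tested.

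The untreated Wapl-degron and parental lines, which differ by the degron while both carry OsTIR1, were compared as a control. None of the 16 members was called by limma, where 0% of the 71 D sites tested passed (2 had an unadjusted p under 0.05). The number was 0 in each alternative fit of this comparison as well. Ighd2-3 differed by -0.09 ± 0.09 and Ighd2-8 by -0.04 ± 0.08. The internal shares were 10.8% ± 0.60 and 11.3% ± 0.49 (SD, n = 3 each; exact permutation p 0.400, adjusted p 0.632). Same-numbered libraries of these lines varied together, but no label pairs them and in both groups replicate 1 was the one that lacked a JH. Within numbers the share was lower in the Wapl-degron line in 3 of 3, by 0.503 points on average (exact paired p 0.250, the smallest that 3 pairs can give).

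The parental line and WT BM differ in transformation, transgenes, the RAG1/2 retrovirus, the arrest with STI-571, culture and sequencing run, which cannot be told apart. WT BM replicates 1 to 3 were in runs 7, 2 and 2, and parental ones in runs 8, 6 and 6. Of the 16 members tested 14 fell and 0 rose, where 50.6% of the 85 D sites tested passed, 49.4% downward and 1.18% upward. These falls are falls in the share of D junctions. With all junctions as library size 0 of the 14 passed, 11 of them below 0 and 3 above, and 5 D sites passed in place of 43. Scaled by the median ratio of sites, 2 of the 14 fell (Ighd2-6 and Ighd2-7), 1 rose and 11 did not pass, and 16 D sites passed. As a share of all junctions, internal junctions were 10.9% ± 0.54 in the parental line and 10.7% ± 10 in WT BM (SD, n = 3 each), and the libraries overlap. JH-region junctions were 20286 of 401241, 330231 of 509261 and 888646 of 1016401 in the WT BM libraries. D junctions were 48.9%, 16.1% and 5.77% of all junctions there and 96.2% to 97.3% in the parental line. VH-region junctions were 6.04% to 45.5% and 0.857% to 1.27%. A value over all junctions therefore also follows the JH-region and VH-region load. Within D junctions, Ighd2-7 fell most among the Ighd2 members, by 4.04 ± 0.18 on the log2 scale (limma, adjusted p 2.03e-09), and Ighd2-6 fell by 3.39 ± 0.18 (adjusted p 1.22e-08). Ighd2-3 fell least, by 0.52 ± 0.08 (adjusted p 2.44e-04). The fits of Ighd5-2 (-3.54 ± 1.70, adjusted p 0.103) and Ighd5-3 (-1.96 ± 1.48, adjusted p 0.298) did not pass. The median change was -3.20 for the members and -2.995 for all D sites. The internal share of D junctions was 8.83% against 33.7% at JH1 (n = 2 and 3) and 10.01% against 45.7% at JH2 (n = 3 each), with no overlap. With JH1 baits alone 7 of the 12 called members that could be fitted fell, and with JH2 baits alone 12 of 14. Ighd2-7 was at -3.62 (adjusted p 1.28e-06) and -4.16 (1.96e-06) there, and Ighd2-3 at -0.79 (9.99e-06) and -0.57 (0.0149). Scaling by the median ratio of sites moved the fitted changes by 2.43 (median over called sites), and Ighd2-3 was then higher in the line by 1.99 (adjusted p 1.08e-05), so its direction rests on the scaling. Ighd2-8 (0.44) and Ighd6-2 (0.76) were above 0 under that scaling too, without passing. Ighd6-2 was higher in the line by 1.64 (adjusted p 0.00492) with distinct junctions counted once, and there Ighd5-4, Ighd5-6, Ighd5-8 and Ighd6-1 were above 0 without passing. With distinct junctions counted once Ighd2-3 was at 0.23 (adjusted p 0.0935), and Ighd5-4 to Ighd5-8 and Ighd6-2 lost their calls without parental replicate 2.

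Sites without an annotated segment were looked at in the same way. The 3 with most junctions had their most used positions at 114704590 (7091 junctions), 114717725 (2687) and 114719274 (2601). Their 28 bases on the JH side are printed with the last 17 bases kept in the joint, in the same layout as above.

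114704590: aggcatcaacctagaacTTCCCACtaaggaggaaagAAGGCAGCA

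114717725: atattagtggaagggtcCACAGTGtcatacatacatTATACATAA

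114719274: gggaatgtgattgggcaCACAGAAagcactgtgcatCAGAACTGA

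These lie at chr12:114704562-114704606, chr12:114717697-114717741 and chr12:114719246-114719290 (mm9, minus strand). The site at 114704590 has 6 mismatches to CACAGTG in its 7 bases, the site at 114717725 has the heptamer but 7 mismatches to the Ighd2 nonamer, and the site at 114719274 has 2 and 7. The site at 114704590 took 0.266%, 0.433% and 0.532% of D junctions in WT BM and 0.295% to 0.460% in INV BM. In the parental line it took 0%, 0.00144% and 0.00196%, where no junction allows up to 0.00141%. Its fall of 8.59 ± 1.12 on the log2 scale (limma, adjusted p 6.72e-05) passed in 15 of 15 alternatives, with a size that ran from -9.27 to -4.22, the last with distinct junctions counted once. The site at 114719274 fell with IAA/Dox, by 3.07 ± 0.81 in the Wapl-degron line (adjusted p 0.0199) and by 3.72 ± 0.68 in the single-Igh line (adjusted p 0.00184). It had 0, 1 and 6 junctions in the treated Wapl-degron libraries and 0, 4 and 3 in the treated single-Igh ones. It lost its call in 5 of 16 alternatives in the first line, among them those without treated replicate 1 or 2, and in 2 of 17 in the second. The site at 114717725 passed upward in the Wapl-degron line (0.99 ± 0.31, adjusted p 0.0395), and it lost this call in each of the 15 alternatives run for it.

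The joints at these sites held long insertions. In WT BM the median insertion was 15 bases at 114704590, 18 at 114717725 and 13 at 114719274, against 3 over the annotated members. A search for 8 or more letters of an annotated D segment in the inserted bases, read in the direction of a normal D, found them in 62.0% ± 1.8, 57.5% ± 18 and 43.5% ± 7.6 of the junctions (SD, n = 3 each). Over the annotated members the share was 1.68% ± 0.46 (SD, n = 3). Among joints with 8 or more inserted bases the gap was smaller, with 70.6% ± 6.7, 65.2% ± 10 and 53.3% ± 4.9 at the 3 sites and 13.7% ± 3.2 over the annotated members (SD, n = 3 each). D letters in the inverted direction, the comparison that the same search gives, were in 6.07%, 1.39% and 13.2% of junctions at the 3 sites and 0.0852% over the annotated members. The 3 sites thus stood above the annotated members in both directions of reading, a difference that was not tested. The search was added after these long insertions had been seen. It counted every line, so repeated reads of a joint weigh in these shares, and shares over distinct junctions were not taken.

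Such letters were in 3.71% ± 0.67 (SD, n = 3) of the Ighd3-2 junctions in WT BM and in 3.29% ± 0.97 (SD, n = 4) in INV BM. Of the 2285 BM junctions concerned, 98.2% held letters of Ighd4-1 (2244 junctions), its neighbour toward JH. Every line was counted here too, so these may stem from fewer separate joints. In the lines 0.946% to 1.89% of member joints on average had 8 or more inserted bases, and 52.7% to 77.9% of those held D letters.

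Members differed in the JH they joined. In the 18 libraries with all 4 JH segments the internal share was 23.5% on average at JH1, 27.5% at JH2, 33.8% at JH3 and 41.3% at JH4, and it was lower at JH1 than at JH4 in 18 of 18. Ighd3-2 and Ighd6-1 each had a lower share at JH1 than at the other JH segments in 18 of 18 libraries. Ighd3-2 took 0.362% ± 0.14 of D junctions at JH1 and 4.32% ± 0.55 at JH2 to JH4 in the 7 BM libraries (mean ± SD), and the ratio within a library was 0.0407 to 0.121. In 11 line libraries it took 0.162% ± 0.077 and 0.803% ± 0.32 (mean ± SD), with ratios of 0.149 to 0.278. Ighd6-1 had a median ratio of 0.215 in BM and 0.328 in the lines, and the 9 pseudogenes summed had 0.253 and 0.364, each lower at JH1 in 7 of 7 and 11 of 11 libraries. The Ighd2 family summed had median ratios of 0.751 in BM and 0.913 in the lines. In BM its members Ighd2-7, Ighd2-4 and Ighd2-6 had 0.602, 0.642 and 0.748, each lower at JH1 in 7 of 7 libraries, and in the lines they were lower in 7, 7 and 6 of 11. Ighd4-1, outside the interval, had 0.511 in BM and 0.703 in the lines and was lower in 18 of 18 too. The single Ighd5 pseudogenes were uneven on few junctions at JH1. Ighd5-6, with 380 there over all 18 libraries, had a median ratio of 0.663 in BM and 1.04 in the lines, and Ighd5-5 and Ighd5-4 were lower at JH1 in 8 and 6 of the 11 line libraries. In BM the highest ratio of Ighd6-1, 0.426, reached the lowest of Ighd2-7, 0.423. With each distinct junction counted once, over 7 BM and 14 line libraries, Ighd3-2 still had ratios of 0.132 and 0.394, the pseudogenes 0.420 and 0.620, and the Ighd2 family 0.984 and 1.05. This contrast was noticed in these data and has no test.

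**Figure D4:**
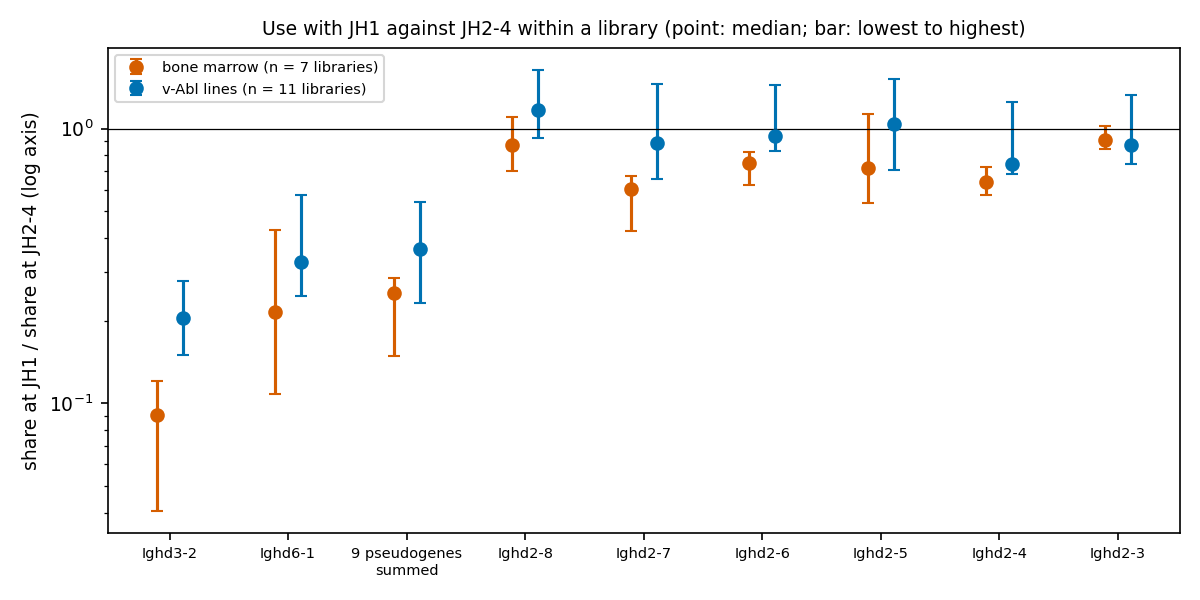
Share of D junctions at JH1 divided by the share at JH2 to JH4 within a library (y axis, log scale) for internal members (x axis), in the 7 BM and 11 line libraries with all 4 JH segments. Points are medians over libraries and bars run from the lowest to the highest library. Ighd3-2, Ighd6-1 and the summed pseudogenes lie below the Ighd2 members, with Ighd3-2 at 0.0910 in BM.

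Internal joints carried few inserted bases in the lines and many in BM. The mean number of inserted bases per internal joint, with overlaps counted as 0, was 4.10, 4.06 and 4.28 in WT BM and 0.847, 0.926 and 0.913 in the parental line. At JH1 the means were 3.45 and 0.610 and at JH2 4.24 and 1.03, with no overlap. These groups are far apart, yet 3 libraries against 3 cannot go below an exact permutation p of 0.100 (adjusted p 0.250). Overlap of the JH and D ends, in which bases could belong to either side, was found in 5.91% ± 0.90 (SD, n = 3) of internal joints in WT BM and 47.8% ± 0.41 (SD, n = 3) in the parental line. It reached 64.1% ± 6.8 (SD, n = 3) in the inverted single-Igh line. Inserted bases were G or C in 65.5% ± 0.60 (SD, n = 3) of cases in WT BM and 60.0% ± 0.28 (SD, n = 3) in the parental line, over insertions of up to 10 bases.

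D ends were trimmed further in WT BM than in the parental line. Mean trimming was 2.89, 2.72 and 2.69 bases in WT BM and 1.65, 1.74 and 1.71 in the parental line. With IAA/Dox it was 1.42, 1.38 and 1.57 in the Wapl-degron line, below the 1.71, 1.70 and 1.73 of untreated libraries, and 1.13, 1.36 and 1.13 in the single-Igh line, below 1.54, 1.58 and 1.53. None of these 3 pairs of groups overlaps, and each exact permutation p was 0.100 (adjusted p 0.250), the floor of this design. WT BM and the parental line were also apart at JH1 (2.67 and 1.55) and at JH2 (2.83 and 1.60). At JH2 alone the single-Igh groups overlapped, with a difference of -0.0434 bases. With distinct junctions counted once the parental mean was 3.81 and the WT BM mean 3.70, which reverses the sign of that difference.

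**Figure D5:**
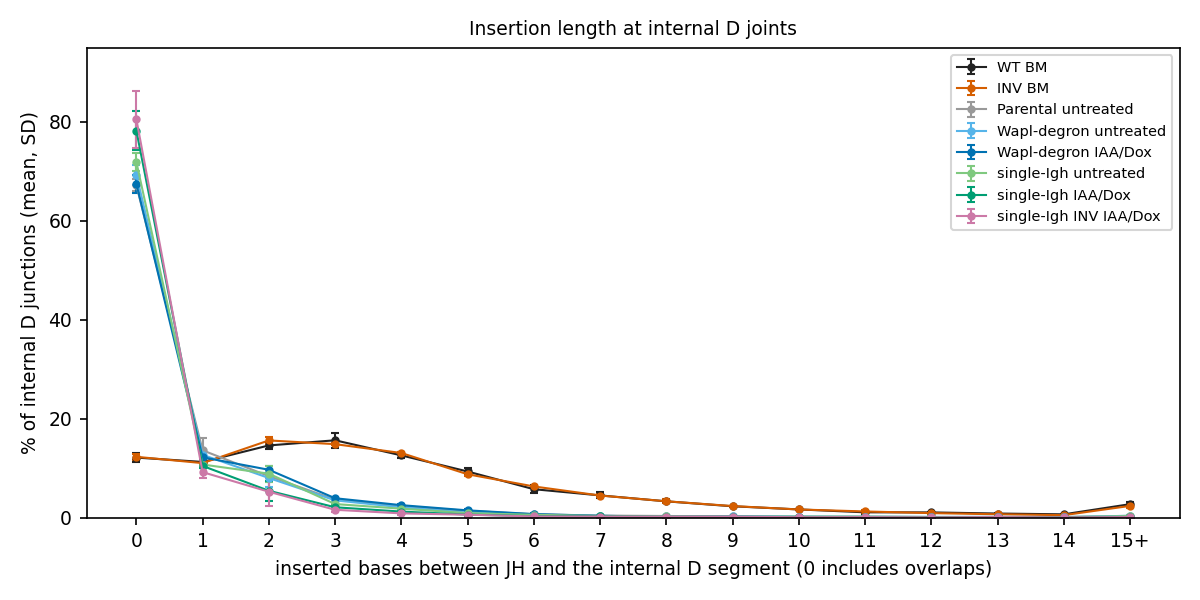
Percent of internal D joints (y axis, mean and SD over libraries) by the number of bases inserted between JH and D (x axis, overlaps counted as 0 and the last point holding 15 or more), for the 8 groups. At 0 the WT BM mean is 12.2% and the parental mean 67.2%, and at 4 inserted bases they are 12.6% and 2.41%.

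Within each library, internal joints were set against those of Ighd1-1, which shares its heptamer with the 6 Ighd2 members but not with the other 10. The test takes the 25 libraries as separate units, though they fall into 8 groups and some groups share a line. Its p-values thus rest on replicates of the same cells. Internal joints had 0.502 more inserted bases on average, higher in 25 of 25 libraries (sign-flip permutation test over libraries, two-sided, p 1e-05, the smallest that 100000 resamples give, adjusted p 1e-05). Their D ends were trimmed by 0.802 fewer bases, lower in 25 of 25 libraries (same test, p 1e-05). Joints past the far end of a segment count as untrimmed in this, and the segments differ in length, with 17 bp for Ighd2-3 and 23 bp for Ighd1-1. The share joined to JH4 could be compared in the 23 libraries with JH4 junctions, since the other two have 0 on both sides. It was 4.78 points higher among internal joints, higher in 23 of 23 (same test, p 1e-05). With distinct junctions counted once, the trimming difference was 1.81 bases, lower in 25 of 25 libraries (permutation p 1e-05). The insertion difference was then 0.0612 bases, higher in 12 of 25 (permutation p 0.671), and the JH4 difference 1.73 points, higher in 13 of 23 (permutation p 0.0933).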

How the data were processed

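Each library's full junction list gives 1 line per junction, with the genomic position of the joint, per the file headers. The authors' deposited values used here are these positions, strands and read coordinates, and reads had been aligned with Bowtie2 to mm9, per the submitters' processing notes. Whether repeated reads had been collapsed is not given in the sources used here. Malformed lines left out numbered 1.

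Junctions in the D region were joined into sites, on each strand apart, where positions lay within 20 bp. A site belonged to the D segment within 20 bp of it. Names of D segments came from a RefSeq table of GRCm38.p6, used for names only, and sequences from the NCBIM37 genome. Inserted bases are those between the bait and prey alignments of a read, and trimming is the distance of the joint from the JH-facing end of the segment.

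For each pair of groups, sites with at least 10 junctions were fitted with limma 3.58.1 (voom, library size set to D junctions, R 4.3.3), with Benjamini-Hochberg adjustment over all D sites and a threshold of 0.05. Single measures were compared by two-sided exact permutation over libraries, adjusted over 30 tests, for which 0.250 was the smallest adjusted p obtained (Python 3.11.15, numpy 2.4.6, pandas 2.3.3, scipy 1.17.1). The fitting code was tested on simulated data. All annotated internal segments are named, with their neighbours and the 3 unannotated internal sites with most junctions. The members and lists were chosen with earlier results of these data known. Alternatives were run 1 at a time. Those within JH1 or JH2 alone, without Ighd4-1 in the denominator, within JH2 without single-Igh IAA/Dox replicate 3, and with parental replicates 2 and 3 as 1 sample were chosen after seeing the data.

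Replicate numbers are in the labels. Deviations of same-numbered libraries from their group means correlated over 0.1 in every pair only for the untreated Wapl-degron and parental lines (0.777, 0.769 and 0.630), where the block changed no call. In both of these groups replicate 1 was the library that lacked a JH, so the correlations do not show a pairing.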

Additional observations from a re-analysis of the deposited data

Results flagged for a closer look

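Within INV BM, Ighd2-6 took 2.92% of D junctions in replicate 1 against a median of 3.69% and a highest value of 3.73%, so that the gap to the nearest library was 0.924 of the group's range. It was the 1 value so far from its group among 24 looked at, where chance gives about 1 in 20. For the pseudogenes Ighd5-6 and Ighd5-7, the libraries with the inversion lay wholly below those without it in BM and wholly above in the single-Igh line. For Ighd5-6 the difference in percent of D junctions was -0.0939 in BM and 0.0246 in the single-Igh line with IAA/Dox, and for Ighd5-7 it was -0.0620 and 0.00977. The difference between BM and line was not tested, and limma called neither segment in either comparison. They are not particular in this: the fitted changes had opposite signs for 9 of 16 members, 7 of them pseudogenes.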

How the results depend on the processing

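Over the alternatives, 429 values of measures and counts kept their direction and side of the threshold, 42 turned sign, 35 counts moved by over 1.5 times and 3 lost their call. For called sites, 449 of 629 fits kept the call, 155 lost it and 25 turned sign. The cause was not tested.

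Differences below are the first-named group minus the second. With JH2 baits only, the internal share was -0.343 points for INV against WT BM, -4.70 for IAA/Dox in the single-Igh line and 0.575 for untreated Wapl-degron against parental. Inserted bases were then 0.0425 and 0.0621 for IAA/Dox in the Wapl-degron and single-Igh lines, and for the inverted single-Igh line the share beyond the midpoint was 1.96 and trimming -0.124. With JH1 baits only, inserted bases were 0.0186 and trimming -0.0856 for INV against WT BM, and untreated Wapl-degron against parental gave 1.13 beyond the midpoint, 0.0165 inserted bases and -0.0398 for trimming. With distinct junctions counted once, the internal share was -0.134 and -2.79 for IAA/Dox in the Wapl-degron and single-Igh lines and 0.826 for untreated Wapl-degron against parental. Inserted bases were then 0.643 for INV against WT BM and 0.600 for the inverted single-Igh line, whose share beyond the midpoint was 0.135, and trimming of parental against WT BM was 0.115. Against Ighd1-1, inserted bases were 0.0612 and the JH4 share 1.59, or 1.73 over the 23 libraries with JH4 junctions. INV against WT BM gave -0.0318 beyond the midpoint within run 2, 0.215 inserted bases and -0.0336 for trimming within run 7, and -0.0254 for trimming inside segments only. Each read name once gave 0.0107 inserted bases for IAA/Dox in the Wapl-degron line, overlaps as negative gave 0.0187 for untreated Wapl-degron against parental, and all junctions as denominator gave an internal share of 0.224 for parental against WT BM.

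Called D sites for INV against WT BM (11) were 27 with all junctions as library size, 48 with at least 1 junction a site, 4 with distinct junctions, 1 at JH1 and 7 at JH2. For IAA/Dox in the Wapl-degron line (27) they were 48 with at least 1 junction and 14 with the run as a block, and in the single-Igh line (20) 45, 11 and, at JH2, 12, or 11 without treated replicate 3 there. For the inverted line (15) they were 3 by median ratio, 6 with at least 100 junctions, 0 with the run as a block and 2 with limma trend. For parental against WT BM (43) they were 5 with all junctions, 16 by median ratio, 73 with at least 1 and 27 with at least 100 junctions, 24 with limma trend, 16 at JH1 and 24 at JH2.

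Leaving out 1 library at a time gave 0 to 14 called sites for INV against WT BM (0 without WT BM replicate 2 or INV BM replicate 3), 14 to 28 for IAA/Dox in the Wapl-degron line (14 without treated replicate 2), 2 to 30 for the inverted line (2 without inverted replicate 2 or 3) and 17 to 44 for parental against WT BM (17 without parental replicate 2). Inserted bases were then -0.0542 to 0.0244 for IAA/Dox in Wapl-degron cells and -0.0935 to 0.0575 for the inverted line. Trimming was -0.00471 to 0.124 for the inverted line and -0.0146 to 0.0288 for untreated Wapl-degron against parental, and the share beyond the midpoint was -0.623 to 0.290 and -1.49 to 1.15. The JH4 share was -2.95 to 2.07 for IAA/Dox in the Wapl-degron line, -40.7 to 2.50 for untreated Wapl-degron against parental and -9.99 to 33.3 for parental against WT BM.

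Of single sites in limma (log2), Ighd6-1 was at 1.34 for INV against WT BM with all junctions as library size. With distinct junctions, Ighd2-6, Ighd2-5 and 114717725 were at -0.0437, -0.14 and -0.20 for IAA/Dox in the Wapl-degron line (114717725 at -0.67 with JH1 only), and Ighd2-6 was at -0.0154 in the single-Igh line. By median ratio, Ighd2-8 and Ighd2-3 were at -0.0817 and -0.16 for the inverted line. For parental against WT BM, Ighd2-8, Ighd6-2 and Ighd2-3 were at 0.50, 0.99 and 2.08 with all junctions and at 0.44, 0.76 and 1.99 by median ratio. There, distinct junctions gave 0.0699 for Ighd5-6, 0.25 for Ighd5-8, 0.20 for Ighd5-4, 1.64 for Ighd6-2, 0.23 for Ighd2-3, 0.35 for Ighd6-1 and 0.46 for 114719274. JH1 only gave 0.84 for Ighd5-5, 0.55 for Ighd5-7 and 1.99 for Ighd6-2, and JH2 only 0.70 for Ighd6-2.

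With the replicate number as a block, called sites numbered 1 for INV against WT BM, 21 and 24 for IAA/Dox in the Wapl-degron and single-Igh lines, 14 for the inverted line, 0 for untreated Wapl-degron against parental and 48 for parental against WT BM. The exact paired p of the internal share for IAA/Dox in the Wapl-degron line was 0.250, the smallest that 3 pairs can give. In no comparison do the labels give more than a shared number.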
